A study of Mus musculus with 10 samples.

Results

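The mRNA levels of 41 genes of the RNA polymerase II (Pol II) initiation machinery were followed in C2C12 cells, a mouse myoblast line that fuses into myotubes in low serum. With earlier results of these data known, the members were picked by symbol, not by their values, from 23460 symbols in 4 expression tables. They comprise 3 genes of the TBP family, 13 core TAFs of TFIID, 4 TAF paralogs or relatives, 3 regulators of TBP, 7 subunits of TFIIA, TFIIB, TFIIE and TFIIF, 4 subunits of TFIIH and 7 subunits of Pol II. The study asked how the amount of TBP protein is set during muscle differentiation by Huwe1, a ubiquitin ligase, and USP10, a deubiquitinase. The values here are transcript levels only, and neither TBP protein nor its stability was measured in these libraries.

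The labels give 10 libraries. The control at day 0 was 1 library of wild type cells in growth medium, and 2 libraries were made from myoblasts that carried lentiviral hairpins against Huwe1 under puromycin selection. The same design, with wild type cells as control, was used after 6 days in differentiation medium with 2% horse serum. For the day 8 myotubes, the virus was given on day 4, so that cells were already differentiating, and selection followed. Their control is labelled as carrying a non-targeting RNA, although the header of the table names it as wild type, and 2 libraries with other hairpins against Huwe1 stand against it. The last library came from a line that expressed a USP10 cDNA from the EF1a promoter, collected at day 6. Where the control is wild type, the knockdown and the handling with virus and puromycin cannot be told apart. The hairpins labelled for days 0 and 6 differ from those of the methods. Each Huwe1 table holds 1 value for the control and 1 value for its 2 knockdown libraries pooled, so the hairpins cannot be compared with each other. Paired values below are those of the control and then of the treated column of a table. In the USP10 table, 1 library stands against 1. No value has a replicate, no p-value was computed, and each ratio compares columns of libraries.

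TBP bends promoter DNA and, with the TAFs, forms TFIID, which recognizes core promoters of Pol II genes. TFIIA and TFIIB stabilize TBP on DNA, TFIIF brings in Pol II, and TFIIE and TFIIH follow, with TFIIH opening the DNA and phosphorylating the tail of the largest Pol II subunit. TBP also serves Pol I and Pol III in other complexes. In differentiated muscle, TFIID protein subunits are known to become scarce, which makes the transcript level of each subunit a separate question from its protein level.

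Marker genes were first checked against the labels. The 14 muscle differentiation genes summed to 367 FPKM (fragments per kilobase of transcript, scaled to library size) at day 0 and to 37766 FPKM at day 6 in control cells, with Myog, a myogenic regulator, at 0.164 and 619 FPKM and Ckm, muscle creatine kinase, at 0 and 219 FPKM. Huwe1 was at 38.3 FPKM in control and 15.2 FPKM in knockdown cells at day 0, at 35.1 and 21.9 FPKM at day 6, and at 55.4 and 33.0 FPKM in day 8 myotubes. Usp10 was at 10.3 FPKM in the control of its table and at 38.3 FPKM in the overexpressing line, where the counting of reads from the cDNA was not stated. Without that cDNA, Usp10 was at 68.5 and 64.2 FPKM in control and knockdown cells at day 0. It was at 13.2 and 35.4 FPKM at day 6, and at 14.5 and 13.1 FPKM in day 8 myotubes. The Usp10 level therefore does not set the overexpressing line apart from all columns without the cDNA.

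The control of the USP10 table stood apart before any comparison was made. Its header names the same read file as the control of the day 6 Huwe1 table, yet the lowest values put the libraries at about 7800000 and 29900000 fragments, and their log2 values correlated with r = 0.77 across 11459 genes and with r = 0.89 across the 40 members with at least 1 FPKM in either column. Genes within a library are not independent, so these correlations are descriptions. Of the muscle differentiation genes, 10 of 14 were at least 2-fold lower in the control of the USP10 table, and 6 of 8 proliferation genes were at least 2-fold higher. Among the members none was at least 2-fold lower, against 8.66% of all genes, and 3 were at least 2-fold higher among 40, against 11.2% of all genes. The 3 were Taf7l (log2 ratio 4.19), Polr2a (2.36) and Tbp (1.37). Whether the control columns of day 6 stem from 1 library processed in different ways or from different libraries cannot be told from the labels. Their ratios are therefore not a spread between replicates. They are set beside results below only to show how far these columns lie apart.

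**Figure D1:**
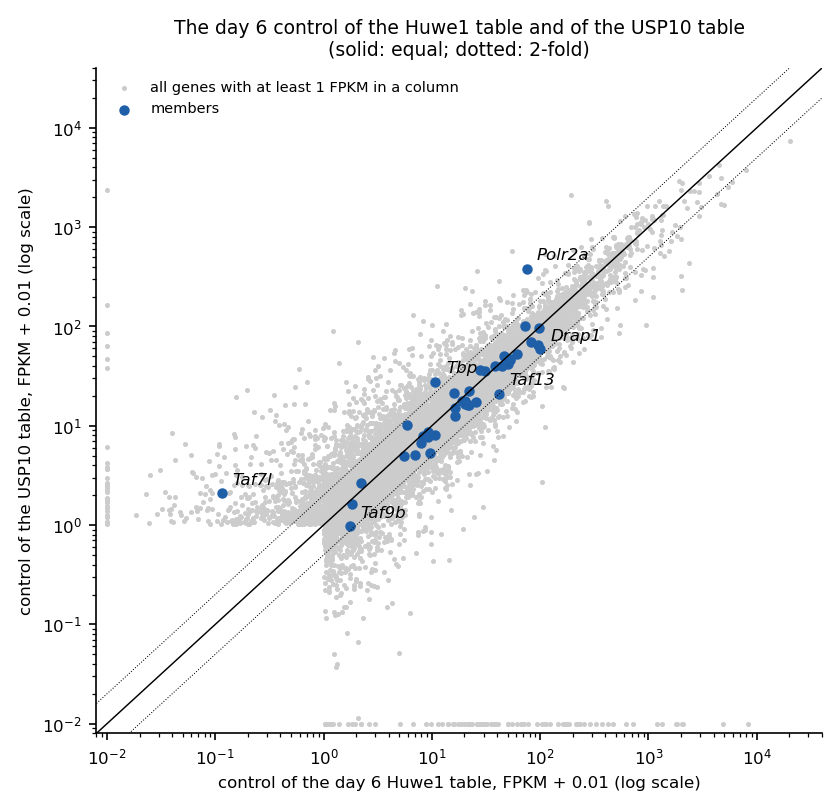
Each point is 1 gene, with its level in the control of the day 6 Huwe1 table on the horizontal axis and in the control of the USP10 table on the vertical axis, both in FPKM with 0.01 added, on log scales. Most members lie between the dotted 2-fold lines, while Tbp, Polr2a and Taf7l lie above them and Taf13 lies close to the lower line with a log2 ratio of -0.99.

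A smaller share of the members than of all genes was at least 2-fold apart in each of the 7 comparisons made. Ratios were formed where either compared column reached 1 FPKM, which kept 39 members in the Huwe1 tables and 40 in the USP10 table. Tbpl2 never passed, and Taf7l passed in the USP10 table alone. A gene was counted as lower or higher when its ratio, with 0.01 FPKM added to each value, was at least 2-fold. Of the 40 members that entered a comparison of treated and control cells, 32 stayed under 2-fold in every table. The 8 that reached it in at least 1 were Tbp, Taf5, Taf7, Taf7l, Taf9b, Drap1, Polr2a and Polr2c. No such count over the tables together was made for all genes, so these numbers have no background beside them. Because the members are expressed more strongly than many genes, the same shares were also taken among genes with at least 5 FPKM in a column. There 5.56% of members against 27.7% of genes were at least 2-fold apart in the day 6 Huwe1 table, 2.78% against 14.1% in day 8 myotubes, and 11.1% against 16.2% in the USP10 table. Whether the share of the members differs from that of other genes was not tested.

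**Figure D2:**
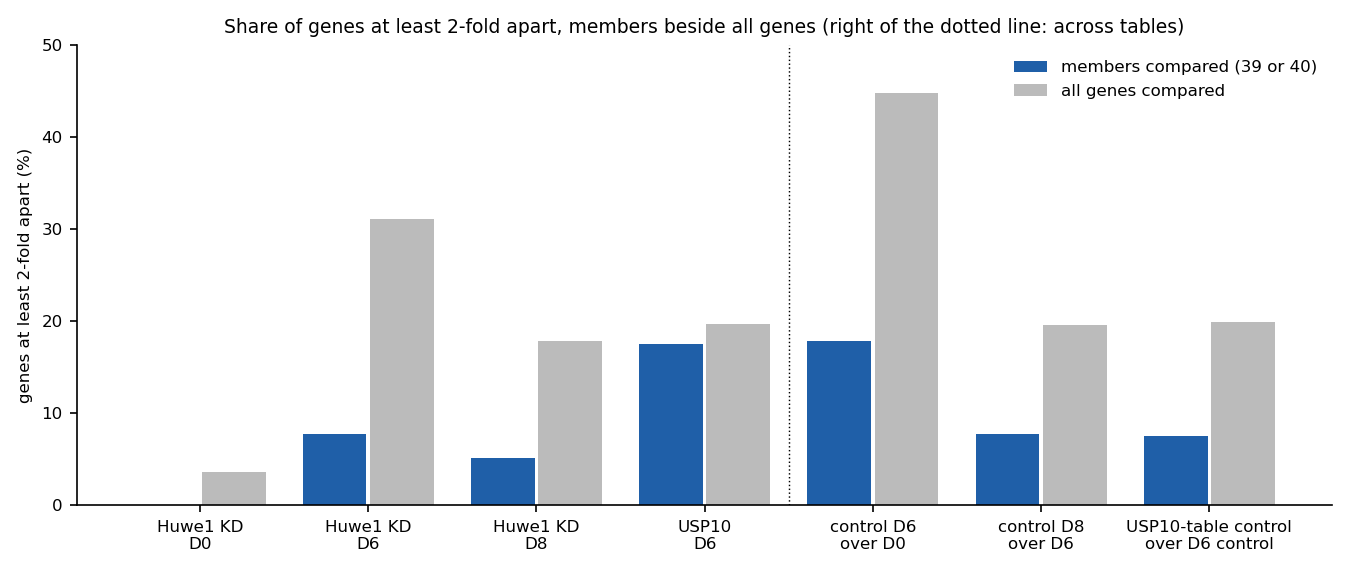
Bars give the percent of genes at least 2-fold apart in each of 7 comparisons, for the members in blue and for all genes compared in grey. The share of members is below the share of all genes in every comparison, and the gap is smallest with USP10, where it is 17.5% against 19.7%.

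In myoblasts at day 0, Huwe1 knockdown left the whole set within 2-fold of the control. No member was at least 2-fold lower, against 1.69% of the 10874 genes compared, and no member was at least 2-fold higher, against 1.90%. The members had a median log2 ratio of 0.04, and 37 of 39 were within 0.5 on the log2 scale. The highest was Taf7 (0.84), a TAF known to bind the TAF1 subunit, and the lowest was Drap1 (-0.43).

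At day 6, the knockdown column differed from the control far more. Of 39 members, 26 were below the control and 13 above, with a median log2 ratio of -0.31, while the median of all 11695 genes was -0.01. The median of the members depended on which were counted, at -0.10 among the 28 whose loci overlap no other gene and at -0.17 without the filter on low values. At least 2-fold lower were 2 members (5.13%), against 13.4% of all genes, and at least 2-fold higher was 1 member (2.56%), against 17.6%. The lower pair was Polr2c (-1.67) and Taf7 (-1.65), and the higher member was Taf9b (1.42). All 4 TFIIH members were below the control, from -0.74 for Gtf2h3 to -0.33 for Gtf2h1, none of them by 2-fold. For Gtf2h3 the day 6 controls lay further apart, at -0.83, and the knockdown value of 5.71 FPKM was above the 5.37 FPKM of the other day 6 control. In the same comparison 13 of 14 muscle differentiation genes were at least 2-fold lower, with a median of -2.83. Of the 8 proliferation genes 6 were at least 2-fold higher, and their summed level was 64.4 FPKM in control and 89.5 FPKM in knockdown cells. Of 8 mesenchymal and reserve cell genes 7 were at least 2-fold higher and Pax7 was lower, with a summed level of 174 FPKM in control and 4922 FPKM in knockdown cells, while Thy1 was at 0 in both. Dcn alone gave 2987 FPKM of the knockdown sum, and the median log2 ratio of the 8 genes was 3.91. These markers differed between the same columns as the members, and their part in the ratios of the members was not tested. In bulk RNA, fewer muscle cells and less RNA per muscle cell cannot be told apart.

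In day 8 myotubes, where the hairpins came after differentiation had begun, the median of the members was nearer the control than at day 6. Below the control were 27 of 39 members, beside 49.9% of all genes, and 12 lay above. At least 2-fold lower was 1 member (2.56%), against 10.0% of 11755 genes, and at least 2-fold higher was 1 member (2.56%), against 7.89%. They were Taf9b (-1.41) and Taf7 (1.06), whose ratios had pointed the other way at day 6. The median of the members was -0.08, and all 7 Pol II subunit members lay below the control, from -0.54 for Polr2h to -0.07 for Polr2b. All 14 muscle differentiation genes were at least 2-fold lower here, with a median of -2.44, and 7 of 8 proliferation genes were at least 2-fold lower as well, with sums of 272 and 62.2 FPKM. The mesenchymal and reserve cell genes summed to 776 and 1059 FPKM, with 2 of 8 at least 2-fold higher and 1 lower. Their part in the values of the members was not tested.

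With USP10 overexpression at day 6, 5 members were at least 2-fold higher (12.5%), against 9.70% of 11482 genes, and 2 were at least 2-fold lower of 40, against 10.0%. The higher members were Taf9b (1.94), Tbp (1.69), Polr2a (1.68), Taf7l (1.35) and Drap1 (1.24), and the lower were Taf7 (-1.09) and Taf5 (-1.06). The median of the 40 members was 0.04 and that of all genes 0.05. For Polr2a and Taf7l, the day 6 controls differed from each other by more than USP10 cells differed from their own control. For Tbp the log2 ratio of the controls was 1.37 beside 1.69 with USP10. Taf9b and Drap1 had been lower in the control of the USP10 table than in the other day 6 control, by log2 ratios of -0.86 and -0.76, and at 3.70 FPKM and 140 FPKM the USP10 line was above both controls. Among the markers, 10 of 14 muscle differentiation genes were at least 2-fold lower, with a median of -2.12, and none of the 8 proliferation genes reached 2-fold in either direction. Of 8 mesenchymal and reserve cell genes 4 were at least 2-fold higher and 1 lower, with sums of 640 and 4392 FPKM. Dcn alone gave 3037 FPKM of the sum with USP10, and the median log2 ratio of the 8 genes was 0.91. The part of these markers in the values of the members was not tested.

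**Figure D3:**
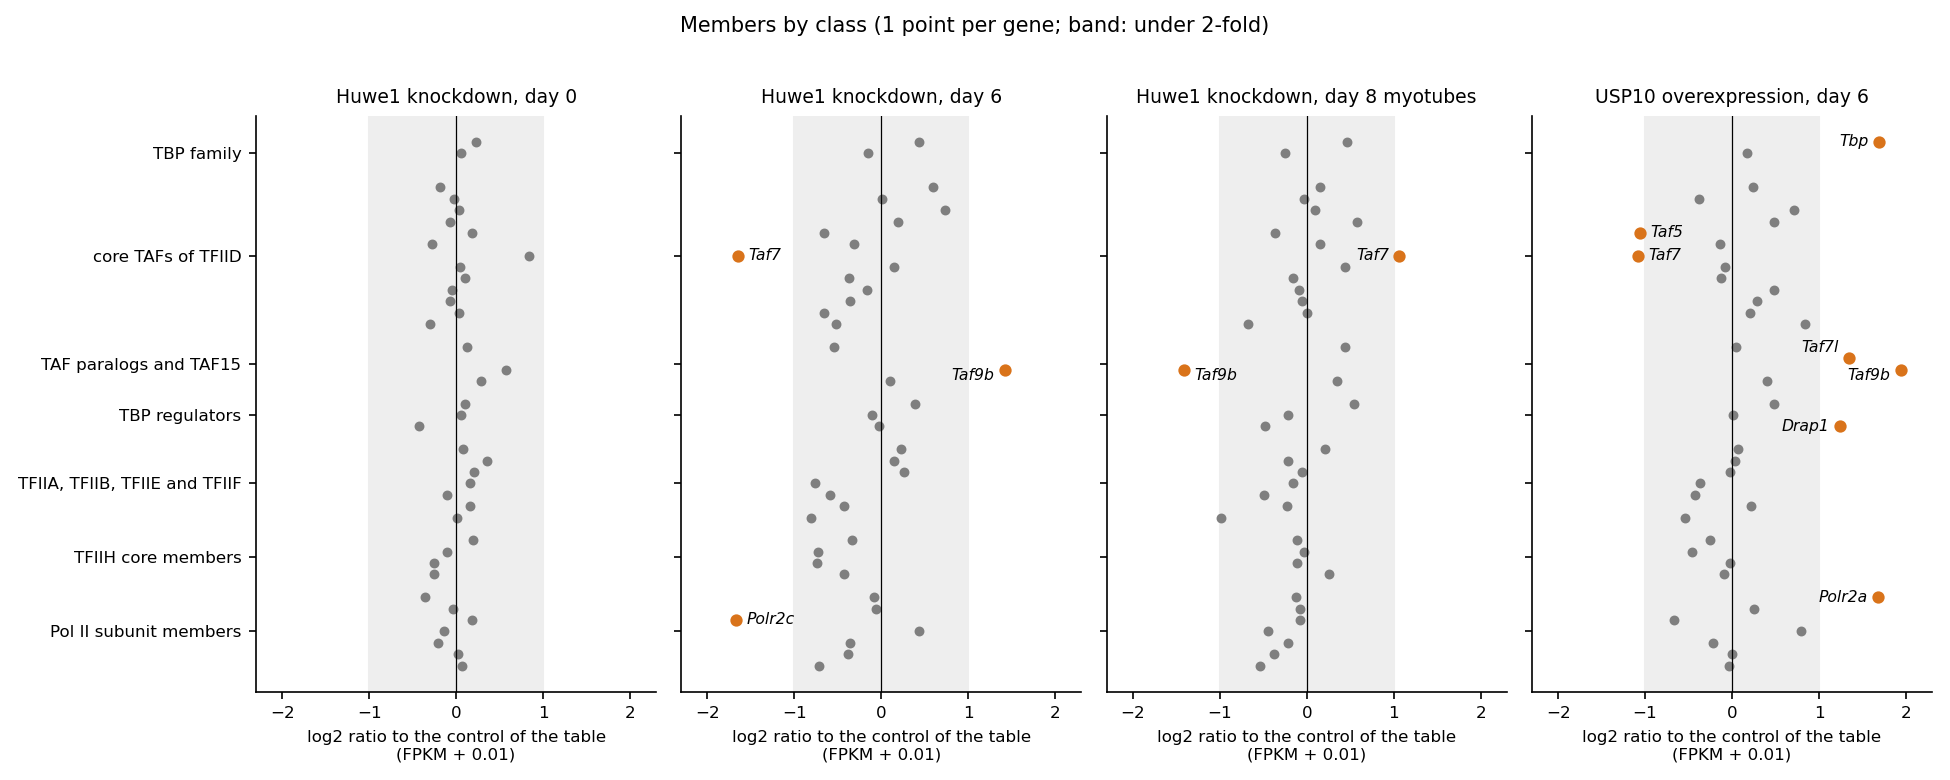
Each point is 1 member, placed by its class from top to bottom and by its log2 ratio to the control of its table from left to right, in 4 panels for the 4 comparisons of treated and control cells. The grey band marks changes under 2-fold, and the named orange points lie outside it, from none at day 0 to 7 with USP10.

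Tbp encodes the DNA-binding subunit of TFIID. Its listed locus is chr17:15499888-15517427 (mm10) and overlaps no other gene of the tables. The level in the controls was 22.7 FPKM at day 0, 10.8 FPKM at day 6 and 15.9 FPKM in day 8 myotubes, and 27.8 FPKM in the control of the USP10 table. The knockdown columns held 26.7 FPKM at day 0, 14.6 FPKM at day 6 and 22.0 FPKM in day 8 myotubes, and the USP10 line held 89.6 FPKM. Tbp mRNA was therefore above the control in all 3 Huwe1 tables, by 1.17-fold, 1.35-fold and 1.38-fold, in each case by less than the 2.58-fold between the day 6 controls. The 3.22-fold ratio with USP10 was the largest of the 4, and 4.54% of genes had a ratio at least as high. From the estimated depths, about 482, 312 and 276 fragments stand behind the controls at days 0, 6 and 8, about 209 behind the control of the USP10 table and about 2386 behind the USP10 line, so that the counting error alone is between 2.05% and 6.92%.

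Across differentiation, the Tbp transcript was 2.11-fold lower in control cells of day 6 than in those of day 0 and 1.48-fold higher in day 8 myotubes than at day 6. The tables were scaled separately, and the order of the day 6 values depends on which control is taken, since one day 6 control lay below and the other above the day 0 level. The 14 housekeeping genes had a median log2 ratio of -1.11 between days 0 and 6, and relative to that median Tbp stood at 0.04. These genes did not move together, since 8 of the 14 lay at least 2-fold below day 0 and 1 at least 2-fold above it, from -4.65 for Tubb5 to 1.02 for Sdha. Centred on the median gene instead, the Tbp ratio was -1.03.

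Because such scales cancel within a column, Tbp was also set against the median of the 13 core TAFs. The ratio was 1.05 in the day 0 control, 0.659 in the day 6 control, 0.813 in control myotubes and 1.74 in the control of the USP10 table. It was 1.36, 0.887 and 1.12 in the knockdown columns at days 0, 6 and 8, above the control of the same table each time, and 5.51 in the USP10 line. The median core TAF itself was at most 21.7 FPKM in any column. In the USP10 line no core TAF was listed above Tbp, while 8 of 13 were in those controls of days 6 and 8 that belong to the Huwe1 tables.

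**Figure D4:**
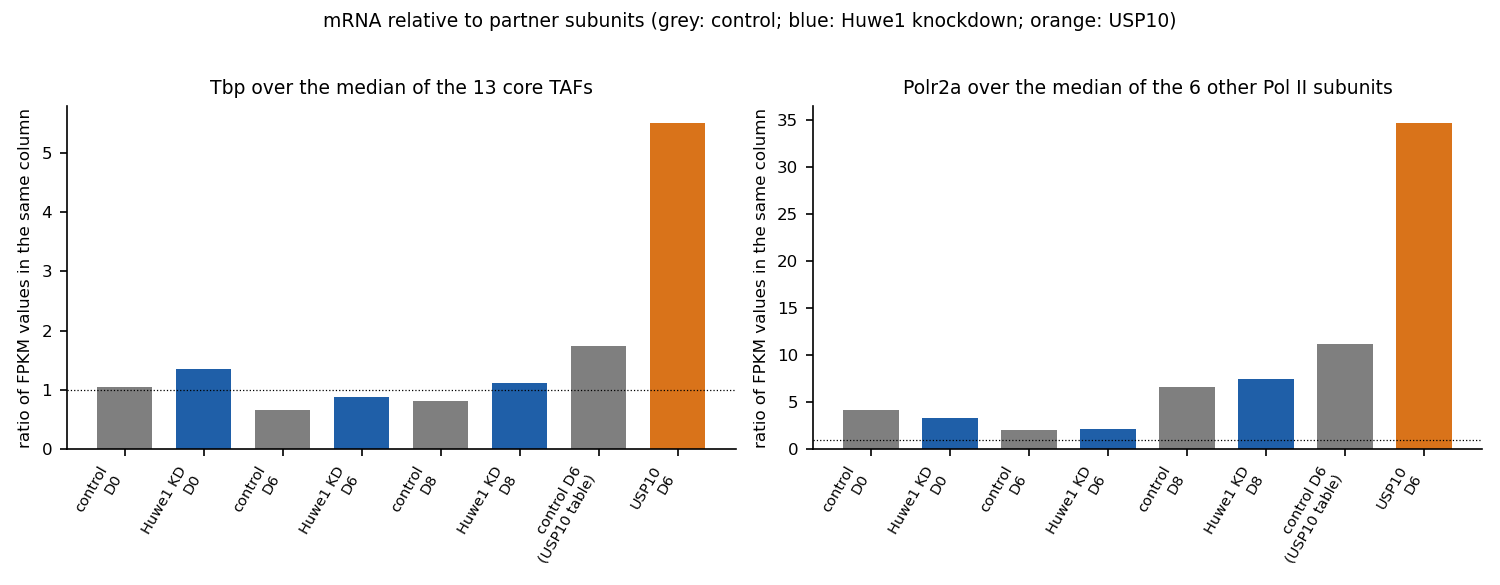
Bars give the FPKM of Tbp divided by the median FPKM of 13 core TAFs (left) and the FPKM of Polr2a divided by the median of 6 other Pol II subunits (right) in the same column, for 8 columns. The left ratio stays between 0.659 and 1.74 outside the USP10 line, where it is 5.51, and the right ratio runs from 2.09 in the day 6 control to 34.7 in the USP10 line.

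Tbpl1, a TBP relative that does not bind the TATA box, followed another course. Its level was 20.3 FPKM in control and 21.1 FPKM in knockdown cells at day 0, 21.9 and 19.8 FPKM at day 6, 10.6 and 8.94 FPKM in day 8 myotubes, and 22.2 and 25.1 FPKM in the control and the USP10 line. The 2 day 8 columns were the lowest, and the day 6 controls lay within 0.02 of each other on the log2 scale. Tbpl2, known for its role in oocytes, was listed at 0 in all 8 columns. In the single-library columns, 3 fragments of Tbpl2 would have given between 0.0802 and 0.309 FPKM, a limit for counting error only. The listed locus of Tbpl1 overlaps that of Slc2a12.

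Without a count over all genes beside it, 5 of the 13 core TAFs ranged under 2-fold over the 8 columns. They were Taf1, the largest TFIID subunit (1.59-fold), Taf2, which contacts the initiator element (1.75-fold), Taf6, the histone-fold partner of TAF9 (1.47-fold), Taf8, the partner of TAF10 (1.90-fold), and Taf11 (1.66-fold). Taf9 and Taf10 were the most abundant core TAFs in the day 0 control, at 157 and 95.4 FPKM. Taf10 ranged down to 46.7 FPKM and Taf12, the partner of TAF4, from 31.7 to 77.8 FPKM. The listed loci of Taf6 and Taf10 overlap other genes, among them Ap4m1 and Ilk. From day 0 to day 6, 11 of 13 core TAFs had a lower value in the control, with a median log2 ratio of -0.48. Of all genes, 52.0% lay below 0 in that comparison, with a median of -0.05. The day 6 knockdown column lay below its control for 8 of 13 core TAFs, beside 50.3% of all genes. The median of the core TAFs there was -0.31, and the highest of their ratios was that of Taf3 (0.73).

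Taf3 binds the trimethylated histone H3 tail at active promoters and has been linked to muscle differentiation together with a TBP relative. It stood at 10.8 FPKM in control and 11.1 FPKM in knockdown cells at day 0, at 5.91 and 9.83 FPKM at day 6, at 8.11 and 8.69 FPKM in day 8 myotubes, and at 10.1 and 16.6 FPKM in the USP10 table. It was above its control in all 4 tables, never by 2-fold, and its day 6 controls differed by a log2 ratio of 0.77. Taf4a, which encodes the TAF4 scaffold, was at 11.1 and 10.6 FPKM at day 0, at 6.93 and 7.94 FPKM at day 6, at 6.38 and 9.53 FPKM in day 8 myotubes, and at 5.07 and 7.11 FPKM in the USP10 table. Its highest level was that of the day 0 control, and its largest ratio to a control was a log2 ratio of 0.58, in the day 8 knockdown.

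Taf7 had the widest range of the core TAFs. It was at 1.07 FPKM in control and 1.92 FPKM in knockdown cells at day 0, at 5.49 and 1.75 FPKM at day 6, at 4.58 and 9.59 FPKM in day 8 myotubes, and at 4.94 and 2.32 FPKM in the control and the USP10 line. The controls after day 0 lay close to each other, the treated columns of day 6 lay below them and the day 8 knockdown above. Its locus is listed over 912 kb and overlaps 60 other genes, of which 59 are protocadherin genes, so which reads were assigned to Taf7 cannot be seen from the tables. Taf5, a WD40 subunit of the TFIID core, was at 5.30 and 6.00 FPKM at day 0, at 2.21 and 1.39 FPKM at day 6, at 2.39 and 1.85 FPKM in day 8 myotubes, and at 2.64 and 1.26 FPKM in the USP10 table. All columns after day 0 were below both day 0 columns, and the listed locus overlaps Usmg5. Taf13, a partner of TAF11, was at 54.7 and 44.5 FPKM at day 0, at 41.9 and 29.1 FPKM at day 6, at 52.5 and 32.9 FPKM in day 8 myotubes, and at 21.1 and 37.8 FPKM in the USP10 table. It gave the lowest core TAF ratio in the knockdown at days 0 (-0.30) and 8 (-0.68) and the highest with USP10 (0.84), where its control was the lowest of the 8 columns.

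Among the paralogs, Taf9b was at least 2-fold apart in 3 of the 4 tables. This close relative of Taf9 was at 2.85 FPKM in control and 4.24 FPKM in knockdown cells at day 0, at 1.75 and 4.70 FPKM at day 6, at 1.16 and 0.429 FPKM in day 8 myotubes, and at 0.959 and 3.70 FPKM in the control and the USP10 line. The knockdown was above the control at days 0 and 6 and below it at day 8, where it was under 1 FPKM. About 19 fragments stand behind the control of the USP10 table, a counting error of 23.1%, and about 52 behind control myotubes. The largest log2 ratio of Taf9 itself in any table was -0.37, at levels from 75.6 to 169 FPKM. Reads shared between the 2 paralogs may have been split by the estimation, which the tables do not show.

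Taf7l, a TAF7 paralog known from germ cells and fat cells, was at 0.0483 and 0.0703 FPKM at day 0, at 0.105 and 0.244 FPKM at day 6 and at 0.293 and 0.119 FPKM in day 8 myotubes. The USP10 table lists 2.09 FPKM for its control and 5.36 FPKM for the USP10 line. Both columns of the USP10 table, its control included, were above all 6 columns of the other tables. The values rest on about 25 and 228 fragments in the USP10 table and on about 2, 5 and 8 fragments in the other controls. Of the fat cell markers, Adipoq was at 0 in all columns and Plin1 in 7, and the summed level of the 6 markers was 41.3 and 238 FPKM in the USP10 table and 144 FPKM in the day 6 knockdown, most of it Lpl. Whether fat cells were present, and whether they had a part in the Taf7l value, was not tested. Taf4b, a TAF4 paralog known from ovary and B cells, was at 4.09 and 4.45 FPKM at day 0, at 1.81 and 1.23 FPKM at day 6, at 1.14 and 1.55 FPKM in day 8 myotubes, and at 1.63 and 1.68 FPKM in the USP10 table, so that the day 0 columns were the highest. Taf15, an RNA-binding protein found with TFIID, lay between 58.6 and 134 FPKM, with no ratio of 2-fold in any table.

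The TBP regulators differed in level and course. Btaf1, an ATPase that strips TBP from DNA, was at 15.5 and 16.6 FPKM at day 0, at 9.21 and 12.0 FPKM at day 6, at 8.63 and 12.6 FPKM in day 8 myotubes, and at 7.67 and 10.7 FPKM in the USP10 table. It had a positive log2 ratio in all 4 tables, the highest being 0.55 in day 8 myotubes. Dr1 and Drap1 encode the NC2 pair that blocks TFIIB from joining TBP. Dr1 was at 24.2 and 25.1 FPKM at day 0, at 20.4 and 18.9 FPKM at day 6, at 15.3 and 13.2 FPKM in day 8 myotubes, and at 16.4 and 16.5 FPKM in the USP10 table, and its lowest log2 ratio was -0.22, in day 8 myotubes. Drap1 was at 176 FPKM in control and 131 FPKM in knockdown cells at day 0, at 100.2 and 98.3 FPKM at day 6, at 190 and 136 FPKM in day 8 myotubes, and at 59.3 and 140 FPKM in the control and the USP10 line. The knockdown was below the control in each Huwe1 table by less than 2-fold, and the lowest value of all was the control of the USP10 table. The USP10 ratio of Drap1 thus rests on a control that was 1.69-fold below the other day 6 control, and its listed locus overlaps 4930481A15Rik.

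**Figure D5:**
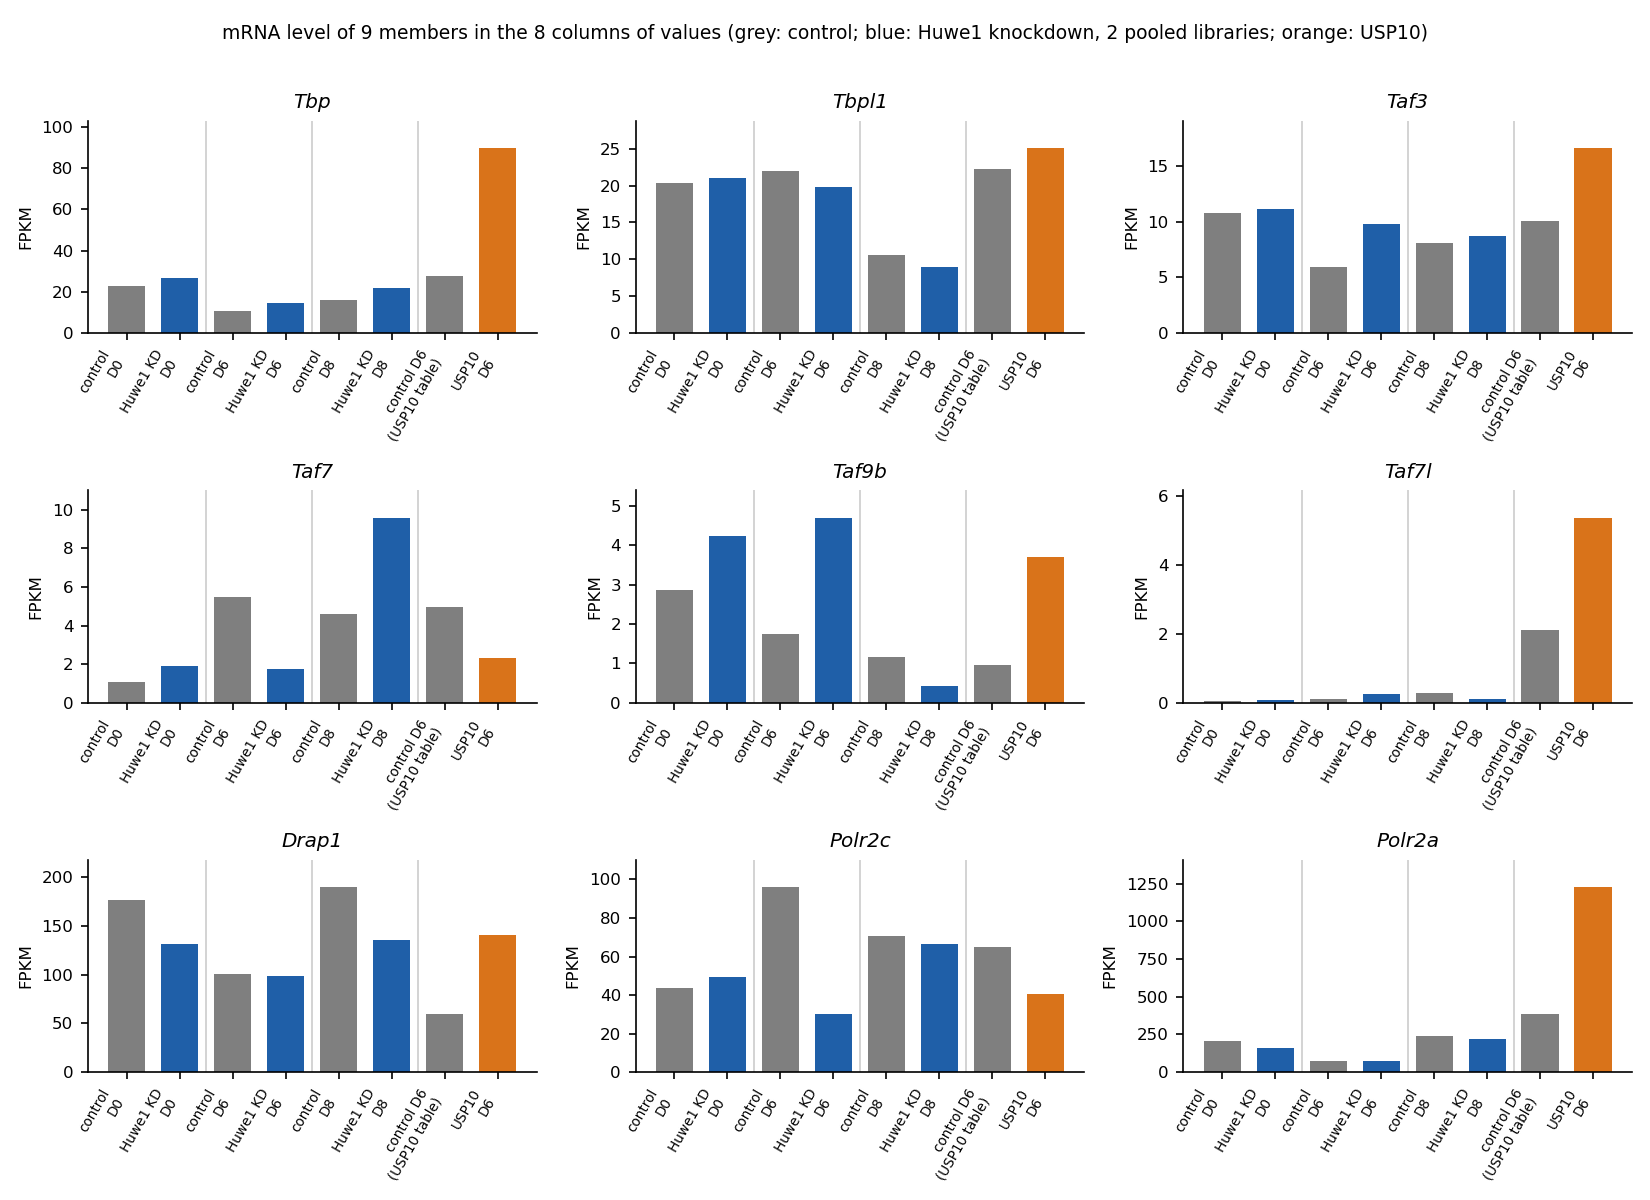
Bars give the FPKM of 9 members in 8 columns, controls in grey, pooled Huwe1 knockdown libraries in blue and the USP10 line in orange, with vertical lines between tables. Tbp and Polr2a are highest in the USP10 line at 89.6 and 1226 FPKM, while Taf7, Taf9b and Drap1 do not share one order.

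None of the 7 general factors that act beside TFIID reached 2-fold in a comparison of treated and control cells. Of all genes, 3.60% did at day 0, 31.1% at day 6, 17.9% in day 8 myotubes and 19.7% with USP10. Whether these 7 genes differ from that background was not tested. Gtf2a1, a TFIIA subunit, was at 9.40 and 9.91 FPKM at day 0, at 9.19 and 10.7 FPKM at day 6, at 8.10 and 9.41 FPKM in day 8 myotubes, and at 8.67 and 9.13 FPKM in the USP10 table, a range of 1.32-fold over the 8 columns. Gtf2a2, the other TFIIA subunit, was at 40.9 and 52.4 FPKM at day 0, at 44.6 and 49.2 FPKM at day 6, at 21.4 and 18.4 FPKM in day 8 myotubes, and at 39.96 and 40.9 FPKM in the USP10 table. Like those of Tbpl1, its day 8 columns were the lowest, with a log2 ratio of -1.06 between the day 8 and day 6 controls. Gtf2b, the single subunit of TFIIB, was at 44.7 and 51.3 FPKM at day 0, at 28.1 and 33.6 FPKM at day 6, at 27.7 and 26.7 FPKM in day 8 myotubes, and at 36.7 and 36.2 FPKM in the USP10 table. The lowest ratios at day 6 (-0.81), in day 8 myotubes (-0.98) and with USP10 (-0.54) were all those of Gtf2f2, the small TFIIF subunit. It was at 39.9 and 40.2 FPKM at day 0, at 38.4 and 21.9 FPKM at day 6, at 36.5 and 18.5 FPKM in day 8 myotubes, and at 39.9 and 27.5 FPKM in the USP10 table. The 4 controls and the day 0 knockdown lay between 36.5 and 40.2 FPKM, and the 3 later treated columns lay below that range. Its listed locus overlaps Kctd4. Gtf2f1, the large TFIIF subunit, was at 109 and 122 FPKM at day 0, at 82.6 and 61.5 FPKM at day 6, at 107 and 91.5 FPKM in day 8 myotubes, and at 70.2 and 82.0 FPKM in the USP10 table, with log2 ratios of -0.43, -0.23 and 0.22 in the same 3 comparisons. Gtf2e2, the small subunit of TFIIE, which helps to recruit TFIIH, was at 54.2 and 50.6 FPKM at day 0, at 52.6 and 34.8 FPKM at day 6, at 39.4 and 28.1 FPKM in day 8 myotubes, and at 45.8 and 34.1 FPKM in the USP10 table. It lay below its control in all 4, and its listed locus overlaps Smim18. The remaining subunit, Gtf2e1 of TFIIE, ranged from 6.18 to 10.7 FPKM.

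The TFIIH members encode core subunits that also serve nucleotide excision repair. Gtf2h1 was at 34.7 and 39.6 FPKM at day 0, at 30.7 and 24.4 FPKM at day 6, at 27.5 and 25.4 FPKM in day 8 myotubes, and at 35.9 and 30.1 FPKM in the USP10 table. Gtf2h2 was at 27.0 and 25.2 FPKM at day 0, at 16.3 and 9.82 FPKM at day 6, at 18.8 and 18.3 FPKM in day 8 myotubes, and at 14.9 and 10.9 FPKM in the USP10 table. In both genes the day 6 knockdown column was the lowest of the 8. Gtf2h3 was at 9.04 and 7.57 FPKM at day 0, at 9.54 and 5.71 FPKM at day 6, at 10.5 and 9.70 FPKM in day 8 myotubes, and at 5.37 and 5.27 FPKM in the USP10 table. Gtf2h4 was at 12.8 and 10.7 FPKM at day 0, at 8.36 and 6.21 FPKM at day 6, at 6.40 and 7.63 FPKM in day 8 myotubes, and at 7.88 and 7.40 FPKM in the USP10 table. Among ratios of treated to control cells, the highest was 0.25, for Gtf2h4 in day 8 myotubes, and the lowest was -0.74, for Gtf2h3 at day 6. With USP10 all 4 lay below the control, by log2 ratios between -0.46 and -0.03.

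Polr2a encodes the catalytic subunit of Pol II. It was at 204 FPKM in control and 160 FPKM in knockdown cells at day 0, at 74.9 and 70.8 FPKM at day 6, at 242 and 221 FPKM in day 8 myotubes, and at 383 and 1226 FPKM in the control and the USP10 line. Knockdown values lay within 1.28-fold of the control in each Huwe1 table, whereas the controls themselves ran from 74.9 to 383 FPKM. The 3.20-fold ratio with USP10 was smaller than the 5.12-fold ratio between the day 6 controls. Polr2a was also the one member at least 2-fold higher in control myotubes than in the day 6 control, with a log2 ratio of 1.69. The other subunits did not share this range. Polr2b, the second-largest subunit, was at 80.5 and 78.6 FPKM at day 0, at 60.9 and 58.5 FPKM at day 6, at 67.1 and 63.7 FPKM in day 8 myotubes, and at 52.8 and 62.9 FPKM in the USP10 table. Its listed locus overlaps Igfbp7. Polr2e, shared by all nuclear polymerases, stayed between 36.0 and 54.3 FPKM, although the listed locus of Polr2e spans 672 kb and overlaps 45 other genes. Set against the median of the 6 other Pol II subunit members, Polr2a was 4.15 times as high in the day 0 control, 2.09 times at day 6, 6.56 times in day 8 myotubes, 11.2 times in the control of the USP10 table and 34.7 times in the USP10 line. In the knockdown columns it was 3.30, 2.19 and 7.42 times as high at days 0, 6 and 8.

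Polr2c, which nucleates Pol II assembly with Polr2j, was at 43.7 and 49.5 FPKM at day 0, at 96.0 and 30.2 FPKM at day 6, at 70.6 and 66.7 FPKM in day 8 myotubes, and at 64.8 and 40.7 FPKM in the control and the USP10 line. The day 6 control was the highest column and the day 6 knockdown the lowest. Against the 64.8 FPKM of the other day 6 control, the knockdown would lie less far off, and its locus is listed over 18.9 kb together with Dok4. Polr2d, a stalk subunit, was at 79.0 and 71.6 FPKM at day 0, at 25.4 and 34.3 FPKM at day 6, at 30.1 and 22.0 FPKM in day 8 myotubes, and at 17.2 and 30.01 FPKM in the USP10 table. All 6 columns after day 0 lay below those of day 0. Its partner Polr2g stayed between 9.90 and 18.8 FPKM. Polr2h, another subunit common to the polymerases, was at 28.5 and 29.9 FPKM at day 0, at 21.9 and 13.3 FPKM at day 6, at 23.7 and 16.3 FPKM in day 8 myotubes, and at 16.2 and 15.9 FPKM in the USP10 table, and had the lowest Pol II ratio in day 8 myotubes (-0.54).

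Between controls, 5 members (12.8%) were at least 2-fold lower at day 6 than at day 0, against 23.2% of all genes, and 2 (5.13%) at least 2-fold higher, against 21.5%. The lower members were Polr2d (-1.64), Polr2a (-1.44), Taf5 (-1.26), Taf4b (-1.17) and Tbp (-1.08), and the higher were Taf7 (2.35) and Polr2c (1.13). The median of the 39 members was -0.39, beside -0.05 for all genes. Below 0 were 31 of the members, beside 52.0% of all genes. When ratios were centred on the housekeeping median of -1.11, none was at least 2-fold lower and 12 were at least 2-fold higher, while 62.3% of all genes were then at least 2-fold apart, against 44.8% without centring. Centred on the median gene, 5 were lower and 2 higher, with a median of -0.34. From day 6 to day 8, 2 members (5.13%) were at least 2-fold lower, Gtf2a2 (-1.06) and Tbpl1 (-1.05), against 5.81% of all genes, and Polr2a alone (2.56%) at least 2-fold higher, against 13.8%. Centred on the housekeeping median of 0.43, 4 were lower and 1 higher, while 23.0% of all genes were at least 2-fold apart, against 19.6% without centring. The day 8 control is labelled as carrying a non-targeting RNA and the day 6 control as wild type, so that time and treatment cannot be told apart. Between these controls, 7 of 8 proliferation genes were at least 2-fold higher at day 8, with sums of 64.4 and 272 FPKM. Of 8 mesenchymal and reserve cell genes 6 were at least 2-fold higher, and of 14 muscle differentiation genes 1 was lower. The part of these markers in the values of the members was not tested. Over all 8 columns, 16 members ranged under 2-fold, 17 between 2-fold and 4-fold and 7 at least 4-fold. These ranges span columns scaled separately and were not taken for all genes, so the counts have no background beside them.

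The wider pathway was taken as 100 further genes of Pol II, TFIIH, Mediator, SAGA, the elongation factors and the TBP partners and subunits of Pol I and Pol III. At day 0 none of 99 was at least 2-fold apart, against 1.69% of all genes lower and 1.90% higher. At day 6 of the knockdown 8 of 100 were at least 2-fold lower, the lowest being Polr3g (-1.93), a Pol III subunit, and 1 was higher, Ercc3 (1.00), the TFIIH translocase, against 13.4% and 17.6% of all genes. In day 8 myotubes 1 was lower, Med18 (-1.06), a Mediator subunit, and 2 were higher, the highest being Tcea2 (1.39), a TFIIS elongation factor, against 10.0% and 7.89% of all genes. With USP10 2 were lower, with Tcea3 (-1.85), a TFIIS form expressed in muscle, at the bottom, and 4 were higher, with Med28 (1.32) at the top, against 10.0% and 9.70% of all genes. The median log2 ratios of these genes were 0.06, -0.21, 0.05 and 0.07 in the 4 comparisons. The 6 other Pol II subunits stayed within 2-fold in all 4, from -0.69 to 0.60, both for Polr2f. The 6 other TFIIH genes ran from -0.63 for Ercc2 at day 6 to 1.30 for Ercc3 with USP10, and the 30 Mediator genes from -1.06 for Med18 to 1.32 for Med28. The 13 TBP partners of Pol I and Pol III ran from -1.34 at day 6 for Rrn3, a Pol I initiation factor, to 1.20 with USP10 for Brf2, a TBP-binding factor of Pol III. The 16 SAGA genes ran from -1.07 for Supt3 to 0.82 for Usp22, both at day 6, the 14 subunits of Pol I and Pol III from -1.93 for Polr3g to 0.97 with USP10 for Polr3b, and the 15 elongation genes from -1.85 for Tcea3 to 1.39 for Tcea2.

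Start-proximal sequence was read for the 5 members that were higher with USP10, to show what their starts share, and for Taf13, which was added for its TATAAA. The bases are the 100 before the start, from RefSeq (GRCm38.p6), shown 5' to 3' on the strand of the gene, and capitals mark TATAAA, the TATA box core bound by TBP, and GGGCGG, the GC box core bound by Sp factors, on either strand. Taf9b has a pair of annotated starts. Start sites are those of RefSeq and were not measured here.
Tbp, chr17:15499788-15499887, plus strand: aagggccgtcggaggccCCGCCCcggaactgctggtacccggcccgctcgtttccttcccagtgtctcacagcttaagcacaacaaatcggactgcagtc
Polr2a, chr11:69758634-69758733, minus strand: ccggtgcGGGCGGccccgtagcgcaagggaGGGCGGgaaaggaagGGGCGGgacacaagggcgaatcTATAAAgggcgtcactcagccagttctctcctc
Taf9b, chrX:106221159-106221258, minus strand: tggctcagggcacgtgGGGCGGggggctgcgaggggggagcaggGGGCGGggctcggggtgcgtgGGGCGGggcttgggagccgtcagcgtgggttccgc
Taf9b, chrX:106219843-106219942, minus strand: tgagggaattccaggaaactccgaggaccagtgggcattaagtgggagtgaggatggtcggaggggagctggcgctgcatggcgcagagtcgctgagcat
Taf7l, chrX:134476491-134476590, minus strand: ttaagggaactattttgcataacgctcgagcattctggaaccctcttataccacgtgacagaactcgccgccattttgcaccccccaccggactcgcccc
Drap1, chr19:5424980-5425079, minus strand: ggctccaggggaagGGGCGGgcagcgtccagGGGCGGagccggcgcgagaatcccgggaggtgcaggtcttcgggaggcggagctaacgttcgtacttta
Taf13, chr3:108571599-108571698, plus strand: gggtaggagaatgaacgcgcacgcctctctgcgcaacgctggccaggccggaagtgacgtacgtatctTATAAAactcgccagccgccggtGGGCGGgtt

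In these windows TATAAA stands 33 bases before the start of Polr2a and 32 bases before that of Taf13, while the window of Tbp holds a GC box and no TATAAA. Of the 40 promoters that RefSeq gave for 34 members, 2 (5%) held TATAAA on the strand of the gene between 20 and 40 bases before the start, beside 1.87% of 32851 mouse promoters. Over the 250 bases before the start and on both strands, GGGCGG was found in 22 of the 40 (55%) beside 32.7% of all promoters, TATAAA in 10 (25%) beside 12.4%, and CCAAT in 8 (20%) beside 33.8%. TATAAA and GGGCGG share no bases in the windows printed. A match describes the letters only, and no binding at these starts was measured.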

How the data were processed

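RNA from C2C12 cells was sequenced from oligo(dT)-selected, directional libraries (ScriptSeq v2 kit, Illumina HiSeq). Reads were mapped by the authors in Tophat, levels came from Cuffdiff, and the deposited values are FPKM with 1 value per condition, the 2 knockdown libraries being pooled in 1 column. The submitters' processing notes name mm10, Bowtie2 and Cuffdiff without versions. The strand setting of the counting is not given in the sources used here. The deposited fold changes, test scores, p-values and q-values of the authors' own comparisons were not used. All 8 FPKM columns were used.

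Log2 ratios were formed as treated over control with 0.01 FPKM added, for genes that reached 1 FPKM in either column, and genes at least 2-fold apart were counted. Tables were normalized separately, so ratios across tables are descriptions. With no replicate values there is no test, and differences were set beside the ratio between the day 6 controls. That ratio is not a spread between replicates, since the library behind the control of the USP10 table is unclear. The members and all gene lists were chosen with earlier results of these data known. Values in every column were given for Tbp, Tbpl1, Tbpl2, Taf3, Taf4a, Taf7l, Taf9b, Polr2a and each member at least 2-fold apart in a table, and for the members with the lowest and highest ratio of each class in each table, with the extremes of the other lists. Depth was estimated for the 5 single-library columns from single-transcript genes of at least 1500 bases. The lowest cluster of FPKM times transcript length was assumed to stand for 1 fragment, which put depth between 7800000 and 29900000 fragments. If that assumption fails, the depths, fragment numbers and counting errors shift with it. Fragment numbers behind a gene use its median protein-coding transcript length in GENCODE and are approximate. Counting error covers sampling of fragments only. The computations were tested on simulated data. Promoters were taken from RefSeq GRCm38.p6 and matched by symbol. Listed loci overlapped another gene for 11 members. The tools were pandas 2.3.3, numpy 2.4.6 and matplotlib 3.10.9, run in Python 3.11.15.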

Additional observations from a re-analysis of the deposited data

Results flagged for a closer look

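For 2 members the Huwe1 knockdown ratio pointed one way at day 6 and the other way in day 8 myotubes, at least 2-fold each time. Taf7 had a log2 ratio of -1.65 at day 6 and 1.06 in myotubes, and Taf9b 1.42 and -1.41. Each ratio is 1 pooled value over 1 control, so the difference between the time points was not tested, and the hairpins and the time of infection also differed between them.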

How the results depend on the processing

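No paired analysis was possible because the tables hold 1 value per condition, and leaving out single replicates was not run for the same reason. The Tbp ratio kept its sign in 62 of 63 cases over the 7 comparisons, and with USP10 it lay between 1.55 and 1.69. The exception was centring on housekeeping genes, an alternative chosen after the data were seen, which turned the ratio of day 6 over day 0 controls to 0.0385. A median of the members was compared with their own median of -0.16 between the day 6 controls, a yardstick also chosen after the values were seen, and moved by more than its size in 4 of 63 cases. These were the day 6 knockdown among loci that overlap no other gene (-0.10) and, with centring on housekeeping genes, the myotubes (0.29), day 6 over day 0 controls (0.73) and day 8 over day 6 controls (-0.50). Over all alternatives the medians ran from 0.03 to 0.13 at day 0, from -0.47 to -0.10 at day 6, from -0.09 to 0.29 in myotubes and from -0.10 to 0.07 with USP10, so that the sign of the last pair was not stable. Centring on housekeeping genes gave 12 members at least 2-fold apart between the day 0 and day 6 controls and 5 from day 6 to day 8, beside 62.3% and 23.0% of all genes.

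Counts of members at least 2-fold apart moved by over 1.5 times in 17 of 70 cases. With a fold of 1.5 in place of 2 they were 1 at day 0, 13 at day 6, 4 in myotubes, 11 with USP10, 19 between the day 0 and day 6 controls, 6 from day 6 to day 8 and 8 between the day 6 controls, beside 10.2%, 50.1%, 35.7%, 35.6%, 63.0%, 38.4% and 38.7% of all genes. Among loci that overlap no other gene they were 1 of 28 at day 6, 1 of 28 in myotubes, 4 of 29 with USP10 and 4 of 28 between the day 0 and day 6 controls. Taf7, Polr2c, Taf5 and Drap1 drop out there by construction. The shares of all genes, taken without that filter on loci, were 31.1%, 17.9%, 19.7% and 44.8%. In myotubes the count was 0 of 39 with a pseudocount of 1, 1 of 36 with a minimum of 5 FPKM and 1 of 38 with at least 1 FPKM in both columns. The shares of all genes there were 12.3%, 14.1% and 12.4%. With USP10 the count was 4 of 36 with a minimum of 5 FPKM, beside 16.2% of all genes. The low levels of Taf9b, Taf7l, Taf5 and Taf7 limit what their ratios can show.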
